A study of Homo sapiens and Homo sapiens
Mus musculus and Mus musculus with 200 samples.

Results

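Human cranial neural crest cells that lacked ALX4 were compared with cells that kept it, before ALX1 was depleted in either. The cells were differentiated in culture from the embryonic stem cell line H9, and H3K27ac, an acetylation of histone H3 found at active promoters and enhancers, was mapped by ChIP-seq. The comparison took 4 of the 200 samples in the series. The ALX4-deficient group, ALX1FV ALX4-, held 2 libraries from clones c22 and c14, and its control, ALX1FV, held 2 libraries from clones c17 and c33. In both groups ALX1 carries the FV tag, which holds a V5 epitope and allows degradation by dTAGV-1. All 4 libraries are the 0 h point of a time course with dTAGV-1 at 500 nM. H3K27ac reads were counted over merged ATAC-seq peaks, sites of open chromatin. Of 213151 such peaks in the deposited tables, 104087 held enough counts to be tested. Each group is 2 clones of 1 line, so the loss of ALX4, the clone and the culture batch cannot be told apart in these libraries. Likewise, fewer cells with a mark and less of the mark per cell cannot be told apart in bulk chromatin.

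ALX1 and ALX4 are paired-type homeodomain transcription factors of the frontonasal mesenchyme, the neural crest derived tissue that builds the midface. Homeodomain proteins recognise short AT-rich sites, and TWIST1, a basic helix-loop-helix factor of the mesenchyme, recognises E-boxes. In facial mesenchyme, TWIST1 and homeodomain partners can share a composite element, in which an E-box and a homeodomain site stand at a fixed spacing. A second arrangement, in which a pair of E-boxes stands 5 bases apart, is known as the double E-box of TWIST1.

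The sequences below show the elements that the binding and motif results turn on, each as a window at the centre of a peak, read from the plus strand of hg38. They were chosen after the values were seen. The first 4 come from peaks that were higher in ALX1FV ALX4- cells. These peaks overlapped TWIST1 peaks found in both replicates of that line but none found in both replicates of WT cells. Capitals mark the double E-box.

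RIMBP2, intron, chr12:130704057-130704257: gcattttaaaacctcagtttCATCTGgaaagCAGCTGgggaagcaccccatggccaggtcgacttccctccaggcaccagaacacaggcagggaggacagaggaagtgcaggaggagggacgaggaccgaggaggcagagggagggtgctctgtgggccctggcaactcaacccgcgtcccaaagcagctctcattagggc

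IBTK, within the long non-coding gene LINC02542, chr6:82058279-82058479: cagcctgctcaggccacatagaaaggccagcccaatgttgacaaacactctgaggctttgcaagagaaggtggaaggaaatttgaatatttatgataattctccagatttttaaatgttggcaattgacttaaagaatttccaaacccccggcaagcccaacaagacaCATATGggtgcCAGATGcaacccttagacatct

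MCOLN3, intron, chr1:85020060-85020260: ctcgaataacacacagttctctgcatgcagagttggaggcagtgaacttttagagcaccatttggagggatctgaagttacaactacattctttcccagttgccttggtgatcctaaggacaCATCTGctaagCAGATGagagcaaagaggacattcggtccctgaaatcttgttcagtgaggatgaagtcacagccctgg

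CTNNA1, intergenic, chr5:138598003-138598203: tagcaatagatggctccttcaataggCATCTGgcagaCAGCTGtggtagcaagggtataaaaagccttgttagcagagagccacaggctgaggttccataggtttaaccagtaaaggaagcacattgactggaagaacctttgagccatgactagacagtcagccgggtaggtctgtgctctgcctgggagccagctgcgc

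The next 4 come from peaks that were lower in ALX1FV ALX4- cells, overlapped a V5 peak of tagged ALX1 in ALX1FV cells and overlapped TWIST1 peaks of WT and of ALX1FV ALX4- cells. Capitals mark the homeodomain site.

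DCDC2C, intergenic, chr2:4183526-4183726: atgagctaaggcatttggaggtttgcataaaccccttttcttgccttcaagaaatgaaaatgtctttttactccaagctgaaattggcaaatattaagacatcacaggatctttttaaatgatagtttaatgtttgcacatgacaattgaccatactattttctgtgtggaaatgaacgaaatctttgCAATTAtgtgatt

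C1orf109, intergenic, chr1:37667116-37667316: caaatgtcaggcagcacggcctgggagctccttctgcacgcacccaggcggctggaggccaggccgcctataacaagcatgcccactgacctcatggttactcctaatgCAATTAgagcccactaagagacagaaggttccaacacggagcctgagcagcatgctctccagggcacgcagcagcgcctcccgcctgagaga

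BTBD3, intergenic, chr20:11792320-11792520: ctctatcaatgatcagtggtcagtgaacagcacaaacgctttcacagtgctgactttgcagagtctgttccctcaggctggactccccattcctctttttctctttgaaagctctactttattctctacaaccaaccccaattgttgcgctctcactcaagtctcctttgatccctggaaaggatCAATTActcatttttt

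SCAF8, intergenic, chr6:154689602-154689802: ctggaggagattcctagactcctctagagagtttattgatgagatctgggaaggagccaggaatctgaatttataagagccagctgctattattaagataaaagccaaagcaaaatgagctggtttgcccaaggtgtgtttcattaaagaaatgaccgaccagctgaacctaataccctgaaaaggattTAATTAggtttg

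The last 3 show the composite element in a lower peak near PRDM1 and in a higher peak near NR2F2, with the E-box and the homeodomain site in capitals, and the homeodomain site of a lower peak upstream of ALX4. Peaks are named here by the nearest start site of a protein-coding gene, which does not show that they act on that gene.

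PRDM1, intergenic, chr6:105902591-105902791: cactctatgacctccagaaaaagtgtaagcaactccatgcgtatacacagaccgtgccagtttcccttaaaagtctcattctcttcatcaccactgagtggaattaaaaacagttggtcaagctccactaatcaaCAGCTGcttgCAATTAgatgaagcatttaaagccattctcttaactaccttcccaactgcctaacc

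NR2F2, long non-coding gene, chr15:95793348-95793548: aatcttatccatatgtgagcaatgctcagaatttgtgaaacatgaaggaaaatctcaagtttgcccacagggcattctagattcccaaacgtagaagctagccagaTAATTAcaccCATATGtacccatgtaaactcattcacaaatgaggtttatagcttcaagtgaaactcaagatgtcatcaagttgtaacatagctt

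ALX4, intergenic, chr11:44386193-44386393: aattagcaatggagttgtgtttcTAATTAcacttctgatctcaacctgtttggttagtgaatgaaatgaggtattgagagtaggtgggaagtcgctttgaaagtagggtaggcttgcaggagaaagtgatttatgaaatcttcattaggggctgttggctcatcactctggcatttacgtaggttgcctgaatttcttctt

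Loss of ALX4 went with more losses than gains of H3K27ac. At a false discovery rate of 0.05 by edgeR's quasi-likelihood test, 1616 peaks were lower in ALX1FV ALX4- cells (1.55% of the tested peaks) and 471 were higher (0.453%). The median log2 difference was -1.60 among the lower peaks and 1.84 among the higher peaks, against -0.014 over all tested peaks. Of the lower peaks, 446 differed by more than 4-fold, as did 185 of the higher peaks. Joined over gaps of up to 1000 bp, the lower peaks formed 1415 regions, 181 of them with more than 1 peak, and the higher peaks formed 427, with 42 such regions.

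These counts depended on single clones. Without ALX1FV replicate 2 only 154 peaks were called lower and 11 higher, without ALX1FV ALX4- replicate 1 the counts were 1135 and 243, and without ALX1FV replicate 1 they were 1975 and 867. None of the 2087 called peaks, where tested, changed direction in any of the 4 fits that left out 1 library. This was all but fixed in advance. At every called peak both libraries of 1 line lay beyond both of the other, so leaving 1 out could hardly reverse a sign. Of the called peaks named here for their size, as ALX peaks, by list or by cluster, 11 of 97 kept their call without ALX1FV replicate 2: those of ADGRL2, AK5, CNTNAP2, LRTM1, NELL2, NR2F2, PAX3 (its intronic peak), PTK2B, SMYD3, SPRY1 and WDHD1. Promoter peaks named only as list promoters are not in this count. With libraries scaled by their totals alone, lower peaks made up 67.5% of the calls instead of 77.4%, and the median of all peaks moved to 0.071. Library totals ran from 6091885 to 8811096 counts. Across the tested peaks the log2 levels of the 2 ALX1FV ALX4- clones correlated at 0.921 and those of the 2 ALX1FV clones at 0.880, and the ALX1FV clones were more unlike each other (SD of the difference 0.799 against 0.606).

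The ALX4 gene itself, the target of the deletion, carried less H3K27ac in its mutant. This mark does not show whether the protein is lost. The promoter peak of ALX4 (chromosome 11, 44309451 to 44310782, overlapping its 5′ end) stood at 153 and 139 CPM (counts scaled to a common library size) in ALX1FV ALX4- replicates 1 and 2, and at 226 and 256 in ALX1FV. In the 8 libraries of the other 4 lines at 0 h (WT, and the lines TWIST1FV, PRRX1FV and MSX1FNV, which carry a tag on those factors) it lay between 195 and 279 CPM. Both mutant libraries were thus below all 10 others, with a log2 difference of -0.72 ± 0.11 (SE, adjusted p = 0.00722). Of 34 tested peaks nearest to ALX4, 29 had a negative difference, 9 were called lower and none was called higher, and their median was -0.72.

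The strongest of these 9 was a distal peak 75756 bp upstream, whose central sequence with its homeodomain site is printed above. It stood at 9.99 and 11.3 CPM in the mutant clones against 28.3 and 22.6 in ALX1FV (log2 difference -1.25 ± 0.26, adjusted p = 0.0286). A peak 27305 bp upstream had 28.9 and 28.4 CPM against 57.5 and 69.2 (-1.14 ± 0.17, adjusted p = 0.00792). One 51447 bp upstream had 19.8 and 25.4 CPM against 44.2 and 50.1 (-1.06 ± 0.20, adjusted p = 0.0198). The lower peaks of this locus ranged from -0.72 to -1.25, so none of them lost its acetylation entirely. The lower peaks at 44365971 and 44426278 overlapped V5 peaks of tagged ALX1 in both lines.

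**Figure D1:**
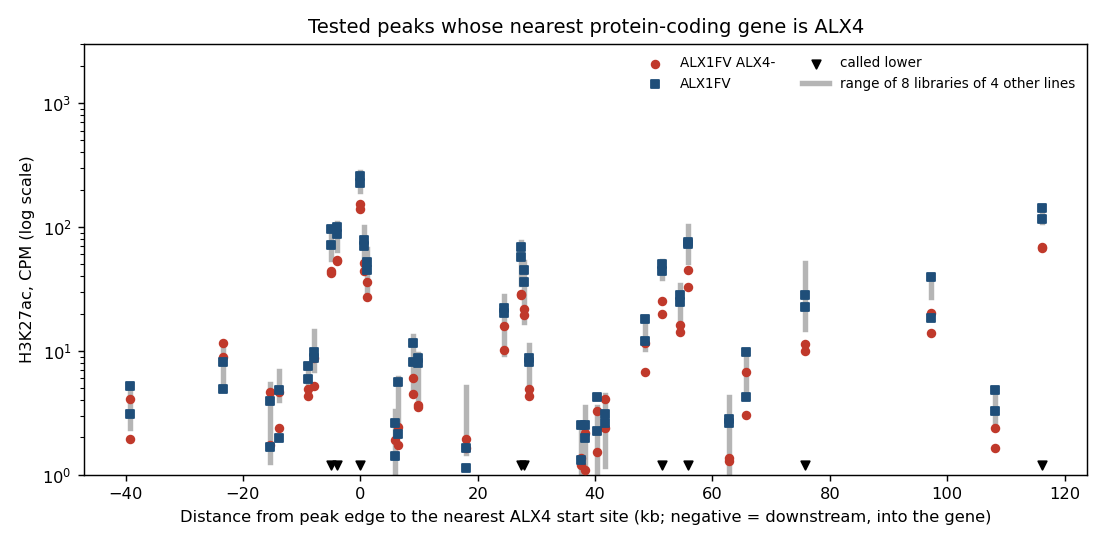
H3K27ac in CPM on a log scale at the 34 tested peaks nearest to ALX4, against the distance in kb from each peak to the nearest ALX4 start site; red circles are the 2 ALX1FV ALX4- libraries, blue squares the 2 ALX1FV libraries, grey bars the range of 8 libraries of 4 other lines, and triangles mark the 9 peaks called lower. The promoter peak stands at 153 and 139 CPM in the mutant against 226 and 256 in ALX1FV.

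ALX1, the tagged factor, did not pass the test at its promoter. The peak there had 113 and 126 CPM without ALX4 and 178 and 148 with it. The mutant clones were again below both controls, and below the 130 to 238 CPM of the other lines, but the difference of -0.45 ± 0.12 did not pass the test (adjusted p = 0.0928). By the same test against WT, the ALX1 promoter differed by -0.92 in ALX1FV ALX4- (adjusted p = 3.88e-06) and by -0.47 in ALX1FV (adjusted p = 0.164).

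Gains included promoters of other transcription factor genes of the facial mesenchyme. MEIS2, a homeodomain cofactor of the TALE class, had 102 and 90.6 CPM at its promoter in ALX1FV ALX4- cells against 23.6 and 15.4 in ALX1FV cells. Its other-line libraries lay between 9.82 and 43.0 CPM, so both mutant clones exceeded every other library. The log2 difference was 2.32 ± 0.20 (adjusted p = 0.000838), and 7 of the 18 tested peaks nearest to MEIS2 were higher, more than for any other gene. Without ALX1FV replicate 2 the MEIS2 promoter kept its call (2.05, adjusted p = 0.042).

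DLX1 and DLX2, neighbouring homeodomain genes that pattern the pharyngeal arches, rose together. The DLX2 promoter peak had 327 and 269 raw counts against 64 and 28 (2.34 ± 0.35, adjusted p = 0.00779). The DLX1 promoter peak had 50.1 and 59.0 CPM against 17.7 and 3.38 (2.4 ± 0.46, adjusted p = 0.0231). The ALX1FV clones differed from each other here, replicate 1 being above every library of the other lines at DLX1 (1.2 to 9.37 CPM), but both stayed well below the mutant. Without ALX1FV replicate 2 the DLX2 promoter difference was 1.79 (adjusted p = 0.0597) and that of DLX1 was 1.63 (adjusted p = 0.0532). Of the tested peaks, 3 of 5 nearest to DLX1 and 3 of 8 nearest to DLX2 were higher. METAP1D, whose peaks lie on the same stretch of chromosome 2, had 5 of 17 higher, such as an intronic peak at 172031714 with 9.88 and 6.80 CPM against 1.31 and 1.13.

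TWIST2, the close relative of TWIST1, also gained promoter acetylation, with 65.9 and 48.7 CPM against 24.2 and 17.5 (1.47 ± 0.22, adjusted p = 0.00787). Without ALX1FV replicate 2 this difference was 1.26 and lost its call (adjusted p = 0.116). The promoter of TWIST1 itself did not differ detectably (59.7 and 57.1 CPM against 53.4 and 63.0, adjusted p = 0.992). LHX8, a LIM homeodomain factor, had 20.9 and 19.6 CPM at its promoter against 5.90 and 0.282, which fell just short (2.76 ± 0.65, adjusted p = 0.0504). Over all peaks nearest to genes of the facial mesenchyme transcription factor list, 26 of 973 were lower (2.67%) and 21 higher (2.16%), with a median of -0.028. At promoters of this list, 4 of 33 tested promoters were higher and 1 was lower, against 30 higher and 71 lower of all 12384 genes with a tested promoter peak. The 4 are MEIS2, DLX1, DLX2 and TWIST2.

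The promoter that fell was that of PAX3. PAX3 and PAX7 are paired-domain factors of the neural crest border and the facial mesenchyme. The PAX3 promoter had 5.43 and 10.3 CPM in the mutant clones and 35.7 and 19.5 in the controls (-1.81 ± 0.36, adjusted p = 0.0261). Without ALX1FV replicate 2 the promoter lost its call (-2.19, adjusted p = 0.0737). A neighbouring intronic peak 790 bp from the start site had 5.43 and 7.34 CPM against 34.4 and 21.0 (-2.12 ± 0.31, adjusted p = 0.00763), and it kept its call without that library (adjusted p = 0.0451). PAX3 varied among the other lines as well, from 7.03 to 57.6 CPM at the intronic peak, and the lowest of them was near the mutant clones.

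PAX7 had 8 of 22 tested peaks lower and none higher. Its strongest, an intronic peak 39004 bp from the start site, had 4.34 and 6.12 CPM against 23.3 and 21.4 (-2.10 ± 0.30, adjusted p = 0.00658), below the 11.9 to 45.5 CPM of the other lines. The PAX7 promoter was weak in all clones (2.28 and 2.45 CPM against 5.57 and 6.77, adjusted p = 0.109).

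MSX1 and NR2F2 had peaks in both directions. MSX1, a homeodomain factor of the facial primordia, had 4 of 35 peaks lower and 1 higher. The lower peak 124114 bp away in STX18-AS1 had 3.26 and 9.24 CPM against 34.1 and 36 (-2.51 ± 0.37, adjusted p = 0.00722), while a peak 92957 bp away in the same long non-coding gene had 23.7 and 22 CPM against 11.3 and 8.74 (1.2 ± 0.27, adjusted p = 0.0412). NR2F2, an orphan nuclear receptor of the mesenchyme, had 2 lower and 3 higher peaks of 88. Its strongest loss, 137898 bp away, went from 16.1 and 25.5 CPM in ALX1FV to 1.52 and 1.36 in the mutant (-3.83 ± 0.39, adjusted p = 0.00109). The NR2F2 promoter had 54.8 and 46.5 CPM against 54.0 and 58.9, with overlapping groups.

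Beyond the facial factors, the strongest well-covered losses included CNTNAP2, which encodes a neurexin-family adhesion protein. Its peak, over an alternative start site, had 3.69 and 5.16 CPM in the mutant against 59.9 and 55.7 in ALX1FV and 30.3 to 133 in the other lines (-3.71 ± 0.24, adjusted p = 0.000194). SMYD3, a lysine methyltransferase gene, had an intronic peak at 1.09 and 1.90 CPM against 22.3 and 18.2 (-3.77 ± 0.39, adjusted p = 0.00109). WDHD1, a replication factor gene, had an intronic peak at 3.26 and 1.63 CPM against 22.6 and 30.9 (-3.41 ± 0.36, adjusted p = 0.0012). The 2 groups lay far apart at each of these peaks. CRLF2 had the largest fold of the 12, but its ALX1FV clones stood at 2.13 and 27.4 CPM, and without replicate 2 of that line the difference was -1.21 (adjusted p = 0.576).

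Among the strongest well-covered gains, OLFM4, PDE2A and CADM2 stood out by level. The OLFM4 peak, in a long non-coding gene 583162 bp away, had 41.6 and 31.8 CPM against 7.21 and 2.12 (3.01 ± 0.41, adjusted p = 0.00492). PDE2A, a cyclic nucleotide phosphodiesterase gene, had 20.9 and 16.9 CPM over a start site against 2.95 and 1.69 (3.04 ± 0.38, adjusted p = 0.00297). CADM2, an adhesion molecule gene, had a peak 1080604 bp away with 15.2 and 14.1 CPM against 1.97 and 1.69 (3.00 ± 0.38, adjusted p = 0.00317). At all 3 peaks both mutant clones exceeded the whole range of the other lines. The RIMBP2 peak with the double E-box printed above had the largest fold of the 12 (3.89 ± 0.51, adjusted p = 0.00398), from 8.69 and 9.65 CPM against 0.328 and 0.846, but the other lines reached 6.56 CPM and ALX1FV was below all of them.

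**Figure D2:**
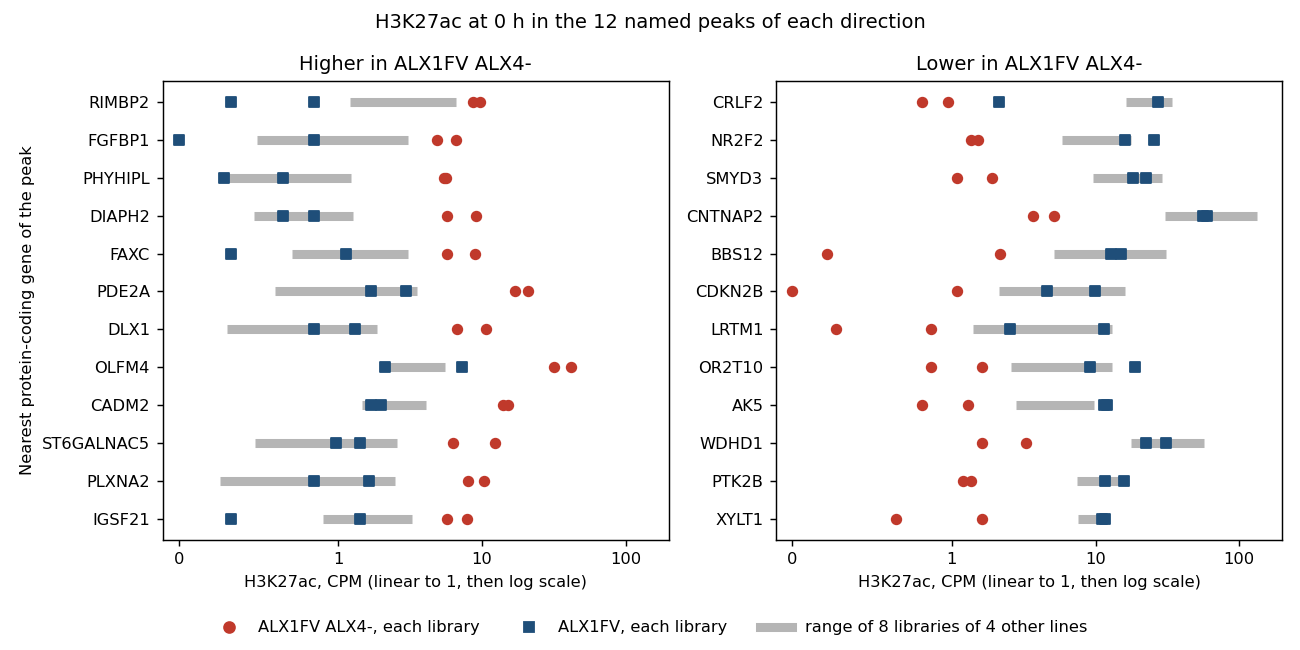
H3K27ac in CPM (axis linear up to 1, then logarithmic) for the 12 well-covered peaks with the largest differences in each direction, 1 row per nearest gene; red circles are the 2 ALX1FV ALX4- libraries, blue squares the 2 ALX1FV libraries and grey bars the range of the 8 libraries of 4 other lines. The ALX1FV ALX4- circles lie beyond both ALX1FV squares in every row because the peaks were chosen so; at CRLF2 the 2 squares stand apart, at 2.13 and 27.4 CPM.

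Several genes held clusters of lower peaks. AOPEP had 13 of its 65 tested peaks lower, LMNTD1 10 of 37, ADGRL2 8 of 112 and NELL2 8 of 31, with none higher in any of them. At AOPEP the strongest peak had 4.56 and 5.16 CPM against 17.9 and 26.2 (-2.18 ± 0.31, adjusted p = 0.00693). On the gaining side, MARCKS had 5 of 51 higher, FLRT2 4 of 70 and KCNMA1 4 of 50. The strongest FLRT2 peak differed at 0 h (2.65 ± 0.58, adjusted p = 0.0384) but not at 3 h (-0.10, adjusted p = 0.957), and its ALX1FV levels of 0.328 and 0.846 CPM were below the 2.11 to 4.97 CPM of the other lines. The interaction test between line and time did not call this peak, but its fit held no term for clone, so it may have missed a change.

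Signalling genes lost more peaks than they gained. In the list of FGF, PDGF and hedgehog genes 19 of 871 tested peaks were lower and 3 higher, and in the BMP and TGF-beta list 15 of 540 were lower and 2 higher. The WNT list had 14 lower and 3 higher of 700, and the retinoic acid list 10 lower and 1 higher of 280. These shares, 2.00% to 3.57% lower, lie somewhat above the 1.55% of all tested peaks, and the list medians ran from -0.15 to 0.01 against -0.014. The shares of higher peaks, 0.344% to 0.429%, were near the 0.453% of all tested peaks.

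Named members show the size of these changes. SPRY1, a feedback inhibitor of FGF signalling, had 4 of 81 peaks lower, the strongest with 3.04 and 3.53 CPM against 33.6 and 13.0 (-2.81 ± 0.44, adjusted p = 0.00909). FGF10, a mesenchymal ligand, had an intronic peak at 1.74 and 2.17 CPM against 9.66 and 7.19 (-2.10 ± 0.41, adjusted p = 0.0238). BMPR1B, a BMP receptor, had 4 of 60 peaks lower, led by one at 2.17 and 2.72 CPM against 11.8 and 15.4 (-2.47 ± 0.37, adjusted p = 0.00779). All 3 peaks stood several-fold lower in the mutant clones. WNT5A, a non-canonical ligand, was lower over a start site, with 7.28 and 11.6 CPM against 24.4 and 43.9 (-1.87 ± 0.32, adjusted p = 0.0139). DHRS3, which reduces retinaldehyde, had 4 of 15 peaks lower, the strongest at 6.73 and 7.07 CPM against 16.5 and 20.9 (-1.44 ± 0.29, adjusted p = 0.0282).

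Among the mesenchyme and crest lists, the cranial crest and mesenchyme identity list had 20 of 645 peaks lower (3.1%) and 4 higher, and the list of early crest specifiers had 8 of 535 lower (1.5%) and 1 higher. Losses made up 77.4% of all calls. Of the list of EMT regulators and cadherins 12 of 315 peaks were lower and 1 higher, and 9 of the lower ones lay nearest to CDH11 (5) and ZEB2 (4). Within 100 kb of a start site, 2 of 162 peaks of this list were lower and none was higher. ZEB2, a repressor of epithelial genes, had its strongest loss 250269 bp away, with 1.95 and 2.17 CPM against 9.17 and 11.4 (-2.31 ± 0.39, adjusted p = 0.0131). SOX9, the chondrogenic factor, had 3 of 82 peaks lower, one of them overlapping V5 peaks of both lines at 16.3 and 20.5 CPM against 44.2 and 57.8 (-1.47 ± 0.21, adjusted p = 0.00656). The SOX9 promoter did not pass the test (-0.17, adjusted p = 0.672). In the cartilage and bone list 6 of 369 peaks were lower (1.63%) and 2 were higher (0.542%), near the shares of all tested peaks. One of the higher peaks was the promoter of MATN3, a cartilage matrix gene, at 32 and 24.5 CPM against 10.8 and 4.51 (1.90 ± 0.36, adjusted p = 0.0199). Collagen and matrix genes stayed near the background, with 6 of 596 lower and 2 higher.

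**Figure D3:**
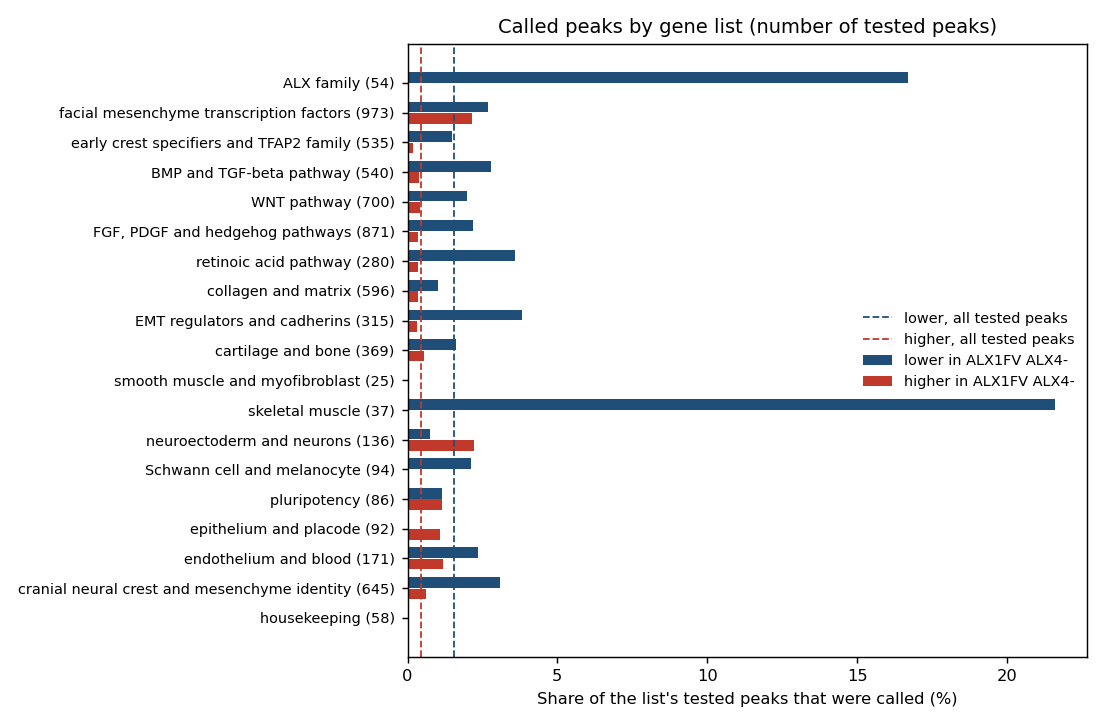
Share in percent of each gene list's tested peaks that were called lower (blue bars) or higher (red bars) in ALX1FV ALX4- cells, with the number of tested peaks in brackets and dashed lines at the shares over all tested peaks, 1.55% lower and 0.453% higher. The ALX family bar holds the 9 lower ALX4 peaks and the skeletal muscle bar the 8 lower PAX7 peaks; HOX genes had no tested peak and are not shown.

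The chromatin had the markers of cranial crest and mesenchyme in both lines. All 15 genes of that list had a tested promoter peak, none was called different, and the promoters summed to 1090 to 1160 CPM without ALX4 and 1190 to 1250 CPM with it. Of 39 HOX genes none had a tested peak. Pluripotency genes had 7 of 13 promoters tested, summing to 360 to 409 CPM against 347 to 374, but POU5F1 and NANOG had none, and LIN28A, LIN28B and SALL4 made up most of the sum. Promoters of the endothelium and blood list summed to 33.4 to 37.3 CPM against 44.8 to 47.3 (7 of 15 tested, none called), those of neuroectoderm and neurons to 40 to 47.8 against 36.7 to 40.5 (7 of 24 tested, none called), and those of smooth muscle to 56.6 to 60.2 against 70.4 to 88.4 (6 of 10 tested, none called). Their part in the differences above was not tested. Epithelial, placodal, Schwann cell, melanocyte and housekeeping promoters had no call either, and the 8 calls in the skeletal muscle list were all PAX7, while MYOD1 and MYF5 had no tested promoter.

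Nearly all lower peaks were bound by TWIST1 in WT cells. TWIST1 peaks called in both WT replicates overlapped 1534 of the 1616 lower peaks (94.9%), against 165 of the 471 higher peaks (35.0%) and 34.7% of all tested peaks. In the TWIST1 libraries of ALX1FV ALX4- cells, which come from the same 2 clones, the shares were 75.3% of lower, 71.3% of higher and 32.1% of all tested peaks. The series holds no TWIST1 library of ALX1FV cells, so WT cells stand in for the control here. Called peaks were stronger than most, and among tested peaks above the median level 50.3% overlapped the WT list and 49.3% the ALX1FV ALX4- list.

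The strength of TWIST1 binding followed the same division. Where they overlapped a TWIST1 peak of WT replicate 1 or 2, lower H3K27ac peaks had a median −log10 q of 152 and 130, against 24.9 and 23.7 over all tested peaks and 16 and 16.4 over higher peaks. In ALX1FV ALX4- the order of the called sets was the other way round, with medians of 39.7 and 39.6 at lower peaks, 59.4 and 44.8 at higher peaks and 18.1 and 17.6 over all tested peaks. These q values are the authors' own for each list, and lists of different depth can be set side by side only in this relative sense.

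Sorting all tested peaks by the pair of TWIST1 lists separated the direction of H3K27ac. The pair sets ALX1FV ALX4- against WT and not against ALX1FV, so the classes also carry the tag on ALX1 and the line. The lists differ in length too, with 42318 TWIST1 peaks shared by the replicates in WT and 36631 in ALX1FV ALX4-. The 9046 peaks on the WT list only had a median log2 difference of -0.45, and 320 of them were lower while 2 were higher. The 6345 peaks on the ALX1FV ALX4- list only had a median of 0.27, with 3 lower and 173 higher. The 27060 peaks on both lists had a median of -0.21, with 1214 lower and 163 higher, and the 61636 peaks on neither had 0.09, with 79 lower and 133 higher. So 36.7% of the higher peaks came from a class that holds 6.10% of the tested peaks, while 0.186% of the lower peaks did.

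The class medians kept their sign in every pairing of a mutant with a control clone. In each of the 4 pairings of a mutant with a control library the WT-only class was negative (-0.47 to -0.37) and the ALX1FV ALX4- only class positive (0.25 to 0.32). Between the 2 clones of the same line the medians of all classes lay between -0.081 and 0.035. The 4 pairings reuse the same 4 libraries, so they are not independent. The ALX1FV ALX4- list holds only TWIST1 peaks found in both of its clones, so small medians between these clones may follow in part from that choice. With promoter peaks left out the 2 classes stood at -0.56 and 0.44, and above the median level at -0.38 and 0.21. The classes differed in base composition, with median GC of 46.8% and 53.2%, and after a correction for GC they stood at -0.40 and 0.27.

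**Figure D4:**
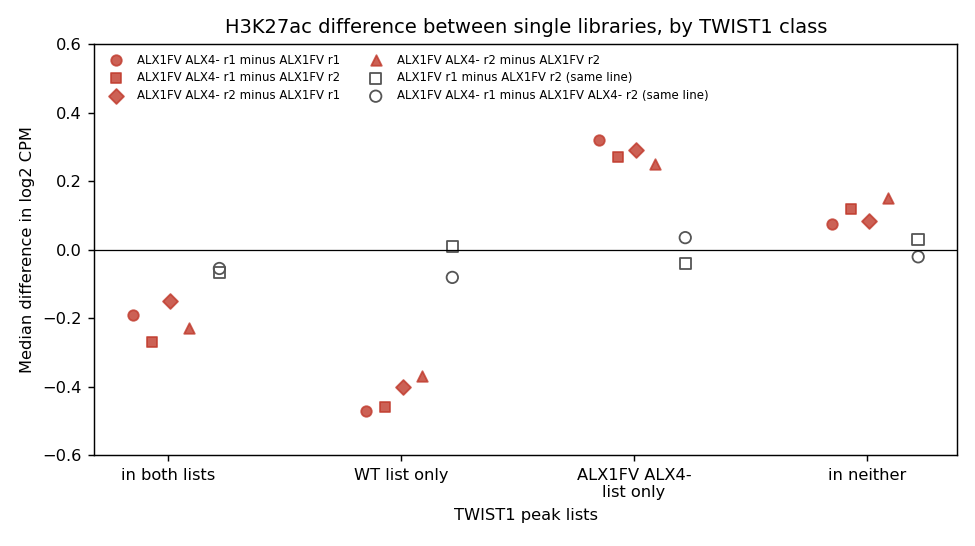
Median difference in log2 CPM over the peaks of each TWIST1 class, for each pairing of single libraries; filled red symbols are the 4 pairings of an ALX1FV ALX4- with an ALX1FV library and open symbols the pairings of clones within a line. The filled symbols lie at -0.47 to -0.37 for peaks on the WT list only and at 0.25 to 0.32 for peaks on the ALX1FV ALX4- list only, and the open symbols between -0.081 and 0.035.

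Binding of tagged ALX1 marked lower peaks but few of them. V5 peaks of ALX1FV cells, from either replicate, overlapped 213 lower peaks (13.2%), 4 higher peaks (0.849%) and 1.45% of all tested peaks. V5 peaks of ALX1FV ALX4- cells overlapped 125 lower peaks (7.74%), 6 higher peaks (1.27%) and 1.52% of all tested peaks. Among tested peaks above the median level the ALX1FV list overlapped 2.76% and the ALX1FV ALX4- list 2.96%. Under the rule used for TWIST1, a peak in both replicates, the ALX1FV list overlapped 30 lower peaks (1.86%) and 0.227% of all tested peaks. The ALX1FV ALX4- list then overlapped 28 lower peaks (1.73%) and 0.44%. Above the median level these 2 lists overlapped 0.434% and 0.859% of tested peaks. Read the other way and with either replicate, 14.1% of the 1512 tested peaks with an ALX1FV V5 peak were lower, with a median of -0.37. The V5 lists were short, with 376 and 1389 peaks in ALX1FV and 920 and 1116 in ALX1FV ALX4-, so most lower peaks could not be classed by them. AP2a, the neural crest factor encoded by TFAP2A, overlapped 22.3% of lower, 15.9% of higher and 16.9% of all tested peaks, against 29.6% of tested peaks above the median level.

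The called peaks were mostly distal. Promoter peaks, which lie within 1000 bp of a start site, made up 8.42% of lower and 11.0% of higher peaks but 22.2% of all tested peaks. By the peak centre, 720 lower peaks were intronic, 559 intergenic, 273 in long non-coding genes, 38 in UTRs and 26 in coding exons. The median distance to the nearest protein-coding start site was 34590 bp for lower, 27782 bp for higher and 15096 bp for all tested peaks.

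Motif content differed between the directions for the homeodomain site and the double E-box. Both strands of the central window, of the same length as the sequences printed above, were searched. A homeodomain site (the letters TAATTA, with the variants TAATTG and also CAATTA), as printed above for DCDC2C, BTBD3 and SCAF8, was present in 21.3% of lower, 15.5% of higher and 12.5% of all tested peaks. An E-box (CAGATG and its reverse complement CATCTG, or the palindromes CAGCTG and also CATATG), which the composite and double elements also contain, was present in 43.2%, 43.7% and 40.8%. The 3 shares of the E-box lay close together. The homeodomain site is AT-rich, and median GC was 44.3% in lower, 47.8% in higher and 50.2% in all tested peaks. Most lower peaks were also on the WT TWIST1 list. A homeodomain site was present in 18.7% of tested peaks on both TWIST1 lists and 17.6% of those on the WT list only. It was present in 9.22% of those on the ALX1FV ALX4- list only and 9.32% of those on neither. The parts of base composition and of TWIST1 class in the homeodomain shares were not tested.

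The double E-box, shown above at RIMBP2 and IBTK, was present in 15 higher peaks (3.18%), 3 lower peaks (0.186%) and 0.412% of all tested peaks. This share rests on few peaks and was 2.06% without ALX1FV ALX4- replicate 1, 1.78% without its replicate 2, 0.577% without ALX1FV replicate 1 and 0.0% among the 11 peaks left without ALX1FV replicate 2. Over all 429 tested peaks with the element, called or not, the median log2 difference was 0.49. Of the ALX1FV ALX4- only TWIST1 class 2.16% held it, against 0.0995% of the WT-only class.

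The composite element was an E-box and a homeodomain site 4 bases apart in either order. It was not more frequent in called than in all tested peaks. It was present in 9 lower peaks (0.557%), 2 higher peaks (0.425%) and 0.511% of all tested peaks, and over its 532 tested peaks the median was -0.17. Of the lower peaks 75.1% were on both TWIST1 lists, where 1.60% of tested peaks held the element. It was found in 0.453% of tested peaks on the WT list only and 0.0698% of those on neither. The lower PRDM1 peak and the higher NR2F2 peak printed above show that it occurred in both directions: PRDM1 went from 12.4 and 17.9 CPM in ALX1FV to 2.17 and 4.35 in the mutant (-2.24 ± 0.40, adjusted p = 0.0166), and NR2F2 from 1.97 and 1.13 to 5.86 and 8.15 (2.18 ± 0.46, adjusted p = 0.0315). At the NR2F2 peak, however, both ALX1FV clones were below the other lines (2.27 to 12.4 CPM), and the difference was 0.87 at 3 h (adjusted p = 0.242).

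The differences between the lines were still present after dTAGV-1. At 3 h 2940 peaks were lower (2.78% of 105712 tested) and 954 higher (0.902%), and at 24 h 4100 were lower (3.96% of 103460) and 1556 higher (1.5%). These libraries were not used at 0 h but come from the same clones. Of the 1616 peaks lower at 0 h, 1284 of 1609 tested were lower again at 3 h and 1385 of 1602 at 24 h. Of the 471 higher peaks, 302 of 467 were higher again at 3 h and 357 of 470 at 24 h. No called peak had a call in the opposite direction at either time. The MEIS2 promoter differed by 2.18 at 3 h and 2.14 at 24 h, and the ALX4 promoter by -0.78 and -0.91.

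The count at 3 h again hung on 1 clone, with 0 peaks called without ALX1FV replicate 2 and 11132 without ALX1FV replicate 1. At 24 h leaving out 1 library gave 3015 to 12249 calls, the lowest without ALX1FV ALX4- replicate 1 and the highest without ALX1FV replicate 1. It was 3106 without ALX1FV ALX4- replicate 2 and 10454 without ALX1FV replicate 2. A change of the line difference with time was not detected for any peak with 2 clones per line. The interaction test of edgeR called 0 peaks at 3 h and 0 at 24 h, with 3867 and 4360 at an unadjusted p under 0.05. Its fit held no term for clone, although the same clones were sampled at each time. Differences between clones thus entered its error, and a change with time may have been missed. No other tool was run on the interaction.

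Set beside 4 other lines, the ALX1FV ALX4- clones stood apart at most called peaks. The calls were made with these same ALX1FV ALX4- and ALX1FV libraries, so part of this distance follows from the choice of peaks. Lower peaks had a median of 3.04 log2 CPM in ALX1FV ALX4- cells, 4.66 in ALX1FV, 4.89 in WT, 4.70 in TWIST1FV, 4.24 in PRRX1FV and 4.29 in MSX1FNV. Higher peaks had 3.87 in ALX1FV ALX4- cells against 2.03 in ALX1FV, 1.5 in WT, 1.89 in TWIST1FV, 2.37 in PRRX1FV and 2.42 in MSX1FNV. At 1509 of the lower peaks (93.4%) both mutant clones were below all 8 libraries of the other lines, as they were at 8.46% of all tested peaks. At 440 of the higher peaks (93.4%) both were above all 8, as at 9.14% of all tested peaks. The ALX1FV clones were above all 8 at 60 of the lower peaks (3.71%, against 2.69% of all tested peaks) and below all 8 at 27 of the higher peaks (5.73%, against 1.65%).

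**Figure D5:**
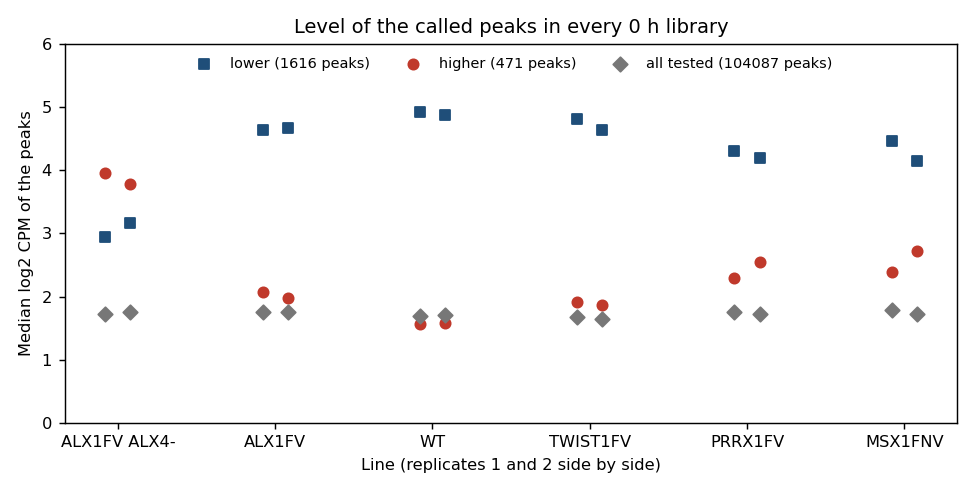
Median log2 CPM of the 1616 lower peaks (blue squares), the 471 higher peaks (red circles) and all 104087 tested peaks (grey diamonds) in each of 12 libraries at 0 h, by line, with replicates side by side. Lower peaks stand at 2.94 and 3.17 in ALX1FV ALX4- and at 4.15 or more in the other 10 libraries, and higher peaks at 3.95 and 3.78 against 2.72 or less. The lower and higher peaks were chosen with the ALX1FV ALX4- and ALX1FV libraries shown.

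Tested directly against WT, ALX1FV ALX4- had 10523 lower peaks (9.44% of 111478) and 7382 higher peaks (6.62%). ALX1FV against WT had 6 lower (0.00631% of 95156) and 4 higher peaks (0.0042%). At an unadjusted p under 0.05 there were 9295 peaks for ALX1FV and 31972 for ALX1FV ALX4-. The 2 ALX1FV clones correlated at 0.880 with each other and at 0.891 to 0.900 with the WT libraries. Their spread limits what the ALX1FV fit can call, so its few calls do not show that ALX1FV was like WT. Both comparisons with WT share libraries with the main one, and the WT libraries held mouse spike-in chromatin that the other 2 lines did not. Individual genes can be set side by side: MEIS2's promoter differed from WT by 2.84 in ALX1FV ALX4- and by 0.53 in ALX1FV, DLX1's by 5.21 and 2.83, PAX7's by -2.89 and -1.51, and ALX4's by -0.82 and -0.095. In ALX1FV the DLX1 and PAX7 differences from WT did not pass the test (adjusted p = 0.175 and 0.108), and at DLX1 the 2 ALX1FV clones stood far apart.

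Lower peaks were also peaks that lost H3K27ac when TWIST1 was degraded. In the TWIST1FV line, whose 0 h libraries are among those of the 4 other lines above and were not used to call the peaks, 5256 peaks fell 3 h after dTAGV-1 (4.26% of 123361) and 1246 rose (1.01%). Of the peaks lower without ALX4, 981 of 1608 tested there fell (61.0%), 4 rose, and the median change was -1.33. Of the higher peaks 24 fell (5.41%) and 31 rose (6.98%) of 444, with a median of 0.09. TWIST1-bound peaks of the WT list that were not called between the lines fell in 12.1% of cases, or 15.5% above the median level, against 62.9% of the bound peaks that were lower. The TWIST1FV replicates come from 1 clone, so the p-values of this fit do not measure the spread between clones.

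Single genes followed or departed from this. The SOX9 peak fell by 2.16 after TWIST1 loss (adjusted p = 5.92e-05), the lower MSX1 peak by 2.48 (adjusted p = 4.68e-05), and the SMYD3 and WDHD1 peaks by 2.98 and 3.67. The PAX3 promoter, lower without ALX4, changed by -0.088 at 3 h (adjusted p = 0.881), and the distal SPRY1 peak by -0.078 (adjusted p = 0.927). The MEIS2 promoter changed by 0.45 (adjusted p = 0.425).

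No chromosome moved as a block. Median differences ran from -0.075 on chromosome 18 to 0.059 on chromosome 19, and the share of lower peaks from 0.442% on chromosome 19 to 2.01% on chromosome 14. In 551 windows of 5 Mb the median lay between -0.48 (chromosome 10, 50000001 to 55000000) and 0.41 (chromosome X, 10000001 to 15000000). Between the 2 ALX1FV clones the same windows spanned -0.49 to 0.57, and between the 2 ALX1FV ALX4- clones -0.28 to 0.23. The line difference also moved with base composition, from a median of -0.19 in peaks near 33.8% GC to 0.10 in peaks near 61.7%, and was -0.062 in the most GC-rich bin. Lower peaks had a median GC of 44.3% and higher peaks 47.8%, against 50.2% over all tested peaks, and with GC corrected 1744 peaks were lower and 721 higher. The part of base composition in the calls was not tested further.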

How the data were processed

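H3K27ac ChIP-seq read counts per peak were taken as the authors deposited them, as whole numbers on hg38 with no normalization. Per the submitters' processing notes the tools were Bowtie2 2.4.1, SAMtools 1.10, MACS2 2.2.7.1 and deepTools 3.5.0, with no role given. In the 4 libraries 79.2% to 80.6% of counts of 20 or more were even, as where both mates of a pair are counted. TWIST1, V5 and AP2a peak lists hold −log10 q values as deposited by the authors, 1 list per library. TWIST1 and AP2a peaks had to be in both lists, V5 peaks in either, and 1 base of overlap counted.

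edgeR 4.0.16 in R 4.3.3 (TMM scaling, filterByExpr, quasi-likelihood test, Benjamini-Hochberg adjustment over all tested peaks) compared 2 with 2 libraries, and each p-value measures the spread between clones. Fits at 3 h, at 24 h, against WT and in TWIST1FV were run the same way, and the code was tested on simulated data. Single levels are CPM scaled over the 36 H3K27ac libraries. log2 levels used a prior count of 2. Annotation was GENCODE 44, overlaps bedtools 2.31.1. DESeq2 1.42.0 was an alternative.

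Named peaks were the 12 with the largest difference in each direction among called peaks above the median level whose lines did not overlap, 1 per gene, those nearest to ALX1 and ALX4 (at most 3 called peaks per gene), the strongest of at most 4 genes per direction in each of 20 lists, promoter peaks of list genes, and the 5 genes with most called peaks per direction. Those printed are a selection of these. The comparison and the lists were chosen with earlier results of these data known. Replicate numbers do not pair the clones. One gene is not reported here.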

Additional observations from a re-analysis of the deposited data

How the results depend on the processing

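No called peak changed direction in the 14 other fits, but each of them used libraries that had made the calls, so a reversal was hardly possible. Of the 97 called peaks named for size, ALX genes, lists or clusters, 81 kept their call with DESeq2, 87 with library size alone, 95 with the GC correction, which was chosen after seeing the data, and 11 to 79 with 1 library left out, fewest without ALX1FV replicate 2. Counts of called peaks with 1 library left out ran from 165 to 2842 (higher 11 to 867, lower 154 to 1975), at 3 h from 0 to 11132 and at 24 h from 3015 to 12249. Fitting the 12 libraries of both lines together gave 898 higher and 3287 called peaks. The 36 libraries of all lines gave 1274 higher, 4090 lower and 5364 called. Neither fit had a term for clone, so libraries of the same clone at 3 and 24 h counted as further replicates. Shares given below for 12 or 36 libraries carry the same limit. Higher peaks numbered 722 above the median level, 803 with counts halved and 721 with the GC correction.

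A fit with the replicate number as a block gave 1127 higher, 2813 lower and 3940 called peaks. The numbers name different clones, and the correlation of the replicate 1 minus 2 differences between the lines was -0.0335, so they do not pair the samples. With the block, 93.4% of lower and 29.8% of higher peaks were on the WT TWIST1 list, 71.4% and 60.5% on the ALX1FV ALX4- TWIST1 list, and 10.6% of lower peaks on the ALX1FV V5 list.

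The share of lower peaks on the WT TWIST1 list was 93.7% with 12 libraries, 90.5% with 36, 92.5% when 0.5 of the shorter interval had to overlap, 99.1% at a false discovery rate of 0.01 and 89.8% to 100.0% with 1 library left out. That of higher peaks was 30.8% with 36 libraries, 40.3% with DESeq2 and 28.7% to 63.6% with 1 library left out. On the ALX1FV ALX4- list lower peaks had 69.8% with 36 libraries, 77.8% with DESeq2, 72.5% under that rule, 81.1% at 0.01 and 67.5% to 75.3% with 1 library left out, and higher peaks 64.6% with 12 libraries, 56.8% with 36, 76.2% with DESeq2, 67.1% under that rule, 79.5% at 0.01 and 55.9% to 90.9% with 1 library left out. Lower peaks on the ALX1FV V5 list were 11.4% with 12 libraries, 9.46% with 36, 19.2% at 0.01 and 11.0% to 16.2% with 1 library left out. Homeodomain sites in lower peaks were 41.4% in the wider window, where 28.1% of all tested peaks had one, 19.3% with the GC correction and 19.9% to 25.3% with 1 library left out. Double E-boxes in higher peaks were 0.0% to 2.06% with 1 library left out. Promoters made up 10.3% of lower peaks with 36 libraries, 10.6% with the GC correction and 7.14% to 13.0% with 1 library left out. The cause of these shifts was not tested. With 2 clones per line, depth and clone number limit which peaks can be called, and peaks without a call may differ.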
